A study of Mus musculus with 15 samples.

Results

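Vitamin A uptake and retinoic acid synthesis was described through 9 of the 43629 genes in the count table. They were chosen by name, with earlier results of these data known. The 9 genes were Rbp2 and Lrat (binding and storage of retinol), Bco1 (carotenoid cleavage), Isx (a transcription factor), Rdh7 and Dhrs9 (oxidation of retinol) and Aldh1a1, Aldh1a2 and Aldh1a3 (synthesis of retinoic acid). Their RNA was followed in crypt-derived organoids of the mouse small intestine (strain C57B6/129), in 13 libraries of 3 groups. WT organoids (n = 5) were grown in ENR medium, which holds EGF, Noggin and R-spondin 1, and comprised 4 lines with floxed Apc alleles (WT 1, 2, 5 and 6) and 1 culture of a doxycycline-inducible Cas9 line that had not seen doxycycline (WT naive). Apc organoids (n = 4) were the same 4 numbered lines after recombination of both floxed Apc alleles, and P-Rspo3 organoids (n = 4: 15d, 4d, M and F) carried a Ptprk-Rspo3 rearrangement, an inversion made by induced Cas9 in cultures that were not cloned. Both mutant groups were grown in EN medium, without R-spondin 1, so genotype and medium cannot be told apart in a comparison with WT, while Apc and P-Rspo3 organoids shared their medium. P-Rspo3 organoids and WT naive came from other lines than the 4 floxed ones. The P-Rspo3 libraries were titled EN15d, EN4d, EN_M and EN_F, so 15d and 4d may be times in EN medium. All 4 were treated as replicates. If 15d and 4d are times of the same culture, fewer than 4 of these cultures are independent. For 2 more libraries, titled LIPO and NAIVE_F, the labels left the group unclear, so they were kept out of the groups and enter only alternative fits.

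The total count per library was 28902729 to 35528495 in the 13 grouped libraries. Counts of Rspo3 were 539 to 1079 in P-Rspo3, 0 to 1 in WT and 7 to 57 in Apc. The Apc gene itself had 4046 to 6810 counts in WT and 9265 to 10953 in the Apc libraries, and a count over the whole gene does not check the loss of an exon. The summed FPKM of 6 epithelial markers was 1880 to 2300 in WT, 1800 to 2280 in Apc and 1860 to 2280 in P-Rspo3. The sum of 10 enterocyte markers was 3520 to 10100 in WT, 2510 to 5620 in P-Rspo3 and 59.9 to 87.4 in Apc. In these bulk libraries, fewer cells of a type and less RNA per cell cannot be told apart.

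The small intestine takes up vitamin A as retinol and as carotenoids. BCO1 splits beta-carotene into retinal, RBP2 carries retinol and retinal in the absorptive enterocyte, and LRAT makes the retinyl esters that are exported or stored. Retinol dehydrogenases oxidise retinol to retinal, and the ALDH1A enzymes oxidise retinal to retinoic acid, the ligand of the RAR and RXR receptors. ISX is an intestinal homeobox factor that is induced by retinoic acid and is known to repress Bco1 and Scarb1.

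Of the 9 genes, 6 were lower and 2 higher in Apc than in WT organoids, and the same 6 and 2 separated Apc from P-Rspo3 organoids. Rbp2, Lrat, Bco1, Rdh7, Dhrs9 and Aldh1a1 were lower. Isx and Aldh1a3 were higher. Aldh1a2 was below the expression filter and is given by its counts. P-Rspo3 and WT were not separated by a call in any of the 7 genes that could be tested. A call needed an adjusted p (Benjamini-Hochberg, over all genes tested) under 0.05 in edgeR's quasi-likelihood test and a log2 fold change beyond 1. Of all genes tested, 14.1% were called lower and 12.2% higher in Apc than in WT. Against P-Rspo3 these shares were 13.3% and 13.4%. Between P-Rspo3 and WT, 1 of all 15992 genes tested was called.

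The promoters of Rbp2 and Bco1, which fell in Apc organoids, and of Isx, which rose, are shown because these genes had the largest fold changes among the uptake, cleavage and regulator members. Each is the 250 bases before a RefSeq transcript start, 5′ to 3′ on the strand of the gene (GRCm38.p6), and capitals mark matches to the motifs described after them. They are Rbp2 at chr9:98490287-98490536 (plus strand, at a start inside the annotated gene), Bco1 at chr8:117095615-117095864 (plus strand) and Isx at chr8:74872924-74873173 (plus strand).
Rbp2: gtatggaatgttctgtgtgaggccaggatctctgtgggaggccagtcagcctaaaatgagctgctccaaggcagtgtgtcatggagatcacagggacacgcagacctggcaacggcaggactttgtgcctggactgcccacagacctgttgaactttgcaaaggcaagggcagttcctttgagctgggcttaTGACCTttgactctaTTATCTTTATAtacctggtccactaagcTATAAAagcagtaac
Bco1: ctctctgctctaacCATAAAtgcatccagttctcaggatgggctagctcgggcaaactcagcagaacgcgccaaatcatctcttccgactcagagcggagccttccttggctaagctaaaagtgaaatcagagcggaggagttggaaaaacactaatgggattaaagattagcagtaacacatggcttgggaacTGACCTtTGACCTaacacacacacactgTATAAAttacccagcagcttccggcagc
Isx: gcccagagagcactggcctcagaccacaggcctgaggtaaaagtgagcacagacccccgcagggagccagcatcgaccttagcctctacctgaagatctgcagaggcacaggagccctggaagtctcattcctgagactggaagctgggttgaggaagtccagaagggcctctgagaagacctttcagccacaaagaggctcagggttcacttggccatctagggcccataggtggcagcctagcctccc

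The promoters were searched on both strands for 6 short motifs. TCF/LEF sites were read as CTTTGAT, sites of the intestinal CDX factors as TTTATG, and those of GATA factors as AGATAA. The core letters of HNF1 sites were read as GTTAAT, single sites of nuclear receptors as AGGTCA, and the basal promoter box as TATAAA. The Bco1 promoter held AGGTCA on the minus strand at positions -56 and -49, which makes a direct repeat 1 base apart, and this repeat stood in 11 of all 32851 promoters of the same length (0.0335%). None of the other 7 members with a promoter in the table held it. AGGTCA alone stood in 14% of all promoters, and among the members also in Rbp2 at position -58, Rdh7 at -105 and Dhrs9 at -88. The box TATAAA (12.4% of promoters) stood at -28 in Bco1 and at -15 and, on the minus strand, -38 in Rbp2, where it overlapped a GATA match at -43 (9.99% of promoters). CTTTGAT, in 3.21% of promoters, was in none of the 8 members' promoters, and the Isx window held none of the 6 motifs. Such matches describe the sequence and are no evidence of binding. The table held no promoter of Aldh1a3.

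Rbp2 (chr9, 98486115 to 98509781, plus strand, GRCm38) was the most abundant member in WT organoids. Its FPKM was 615, 339, 642 and 350.0 in WT 1, 2, 5 and 6 and 821 in WT naive. The P-Rspo3 values were 154 in 15d, 385 in 4d, 407 in M and 600.4 in F. In Apc it was 0.989, 2.75, 0.549 and 0.60 in lines 1, 2, 5 and 6. All 4 Apc libraries lay far below the other 9, and the ranges of WT and P-Rspo3 overlapped. Among all genes it ranked at 156 by mean FPKM in WT, at 205 in P-Rspo3 and at 11937 in Apc. By edgeR's quasi-likelihood test the log2 fold change of Apc against WT was -9.23 (SE 0.50, adjusted p = 1.3e-07). Against P-Rspo3 it was -8.71 (SE 0.61, adjusted p = 3.7e-06 by the same edgeR test).

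Lrat (chr3, 82892579 to 82903973, minus strand) encodes the enzyme that esterifies retinol. Its FPKM was 3.09, 1.99, 2.74 and 3.03 in WT 1, 2, 5 and 6 and 3.21 in WT naive. The P-Rspo3 libraries had 3.19 in 15d, 3.95 in 4d, 4.42 in M and 3.12 in F. In Apc it was 0.0200, 0.0807, 0.0107 and 0.286 in lines 1, 2, 5 and 6, or 4, 14, 2 and 59 counts. The Apc libraries were again all below the others, with line 6 the highest of them. The log2 fold change was -5.09 (SE 0.67) against WT and -5.46 (SE 0.71) against P-Rspo3, with adjusted p of 7e-05 and 0.00016 by edgeR. Without Apc 6 the values were -6.55 and -6.92. Lrat overlaps the antisense gene Rbm46os, and the strand setting of the counting is not given in the sources used here, so reads of the pair cannot be told apart where they overlap.

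Bco1 (chr8, 117095854 to 117133720, plus strand) had an FPKM of 25.3, 31.5, 69.3 and 34.0 in WT 1, 2, 5 and 6 and 42.0 in WT naive. In P-Rspo3 it was 48.5 in 15d, 20.8 in 4d, 15.1 in M and 76.5 in F. In Apc it was 0.104, 0.249, 0.372 and 0.329 in lines 1, 2, 5 and 6. P-Rspo3 libraries were spread more widely than WT, on both sides of the WT range, and none came near the Apc libraries. The log2 fold change of Apc was -7.48 (SE 0.45, edgeR adjusted p = 2.5e-07) against WT. It was -7.45 (SE 0.66, edgeR adjusted p = 1.6e-05) against P-Rspo3.

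Isx (chr8, 74873173 to 74893506, plus strand) went the other way. In Apc its FPKM was 48.6, 36.1, 46.1 and 42.2 in lines 1, 2, 5 and 6, from 2649 to 4016 counts. In WT it was 0.0265, 0.131, 0.0974 and 0.0123 in WT 1, 2, 5 and 6 and 0.765 in WT naive, with 2, 9, 5, 1 and 59 counts. In P-Rspo3 it was 0.612 in 15d, 0.0842 in 4d, 0 in M and 0.0281 in F, with 49, 6, 0 and 2 counts. The Apc libraries, all far above the other 9, had Isx within the range of Bco1 in WT, and WT naive and P-Rspo3 15d stood above the rest of their groups. Isx was at rank 2206 of all genes in Apc. The log2 fold change of Apc was 7.40 (SE 0.62, edgeR adjusted p = 2.5e-06) against WT and 9.23 without WT naive. Against P-Rspo3 it was 7.55 (SE 0.65, edgeR adjusted p = 1.3e-05) and 9.86 without 15d.

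Rdh7 (chr10, 127884028 to 127888817, minus strand) encodes a short-chain retinol dehydrogenase. Its FPKM was 57.3, 39.4, 52.4 and 21.9 in WT 1, 2, 5 and 6 and 37.6 in WT naive. The P-Rspo3 libraries had 9.31 in 15d, 30.5 in 4d, 37.2 in M and 22.5 in F. In Apc it was 0.0140, 0.203, 0.206 and 0.207 in lines 1, 2, 5 and 6. Apc 1 had 1 count of Rdh7, the other Apc libraries had 13 to 15, and P-Rspo3 15d was the lowest of the remaining 9 libraries. The log2 fold change of Apc was -8.37 (SE 0.47, edgeR adjusted p = 1.5e-07) against WT. It was -7.59 (SE 0.61, edgeR adjusted p = 8.2e-06) against P-Rspo3. Rdh7 lies in a cluster of related genes on chromosome 10 with Rdh1, Rdh9, Rdh16 and Rdh19, and reads shared among them could not be assigned with certainty.

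Dhrs9 (chr2, 69380445 to 69404533, plus strand), another short-chain retinol dehydrogenase, was expressed at a low level. Its FPKM was 0.580, 0.477, 0.763 and 0.713 in WT 1, 2, 5 and 6 and 0.572 in WT naive, at 65 to 116 counts. In P-Rspo3 it was 0.369 in 15d, 0.592 in 4d, 0.375 in M and 0.876 in F, and in Apc it was 0.0129 to 0.0237, at 2 to 4 counts. No Apc library overlapped another group. The log2 fold change of Apc was -5.27 (SE 0.29) against WT and -5.10 (SE 0.43) against P-Rspo3, with edgeR adjusted p of 1.4e-07 and 1.2e-05.

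Aldh1a1 (chr19, 20492715 to 20643465, plus strand) was the most abundant retinal dehydrogenase of the 3 in every library. Its FPKM was 316, 230.1, 250 and 309 in WT 1, 2, 5 and 6 and 616 in WT naive. In P-Rspo3 it was 212 in 15d, 410.3 in 4d, 249 in M and 668 in F, and in Apc it was 51.6, 28.7, 47.5 and 38.5 in lines 1, 2, 5 and 6. Aldh1a1 was the called member that fell least and remained well expressed in Apc organoids, at rank 2299 of all genes. The log2 fold change of Apc was -3.34 (SE 0.33, edgeR adjusted p = 8e-06) against WT. It was -3.51 (SE 0.41, edgeR adjusted p = 7.6e-05) against P-Rspo3. Aldh1a7 is a near copy beside Aldh1a1 on chromosome 19, and it also fell, with log2 fold changes of -2.04 (SE 0.29) and -2.41 (SE 0.24). The division of reads between the copies is uncertain.

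Aldh1a3 (chr7, 66390890 to 66427517, minus strand) and Aldh1a2 (chr9, 71215789 to 71296243, plus strand) make retinoic acid from retinal as Aldh1a1 does. Aldh1a3 had 11, 7, 5 and 6 counts in WT 1, 2, 5 and 6 and 7 in WT naive, 15, 4, 9 and 6 in P-Rspo3 15d, 4d, M and F, and 134, 96, 59 and 131 in Apc 1, 2, 5 and 6. Its FPKM in Apc was 0.491 to 1.05, and at most 0.299 in WT and 0.358 in P-Rspo3, so that no Apc library overlapped another group. Its log2 fold change was 3.44 (SE 0.31) against WT and 3.24 (SE 0.39) against P-Rspo3, with edgeR adjusted p of 4e-06 and 9.9e-05. FPKM and counts of Aldh1a3 did not rank the WT libraries alike, since WT 1 had 0.299 at 11 counts and WT 2 had 0.0296 at 7.

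Aldh1a2 had 33, 7, 30 and 85 counts in Apc 1, 2, 5 and 6. It had 1 count in WT 1, 0 in the other WT libraries and 0 in all 4 P-Rspo3 libraries. With library size considered, the ratio of summed counts of Apc to WT was 149 (exact 95% interval 26.4 to 5920, counting error only). Against P-Rspo3 it was at least 9.62-fold, with 3 counts per library as the floor. Every Apc library had more counts than any other, but at an FPKM of 0.0793 to 0.835 the gene stayed below Aldh1a1 in each of them. Aldh1a2 and Bco1 overlap a processed pseudogene each, Aldh1a1 overlaps a pseudogene and a noncoding transcript, and Rbp2 an unprocessed transcript model, so a share of their reads is uncertain. Aldh1a1 made up 95.4% to 98.3% of the summed FPKM of the 3 genes in Apc, 99.9% to 99.99% in WT and 99.8% to 99.98% in P-Rspo3.

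**Figure D1:**
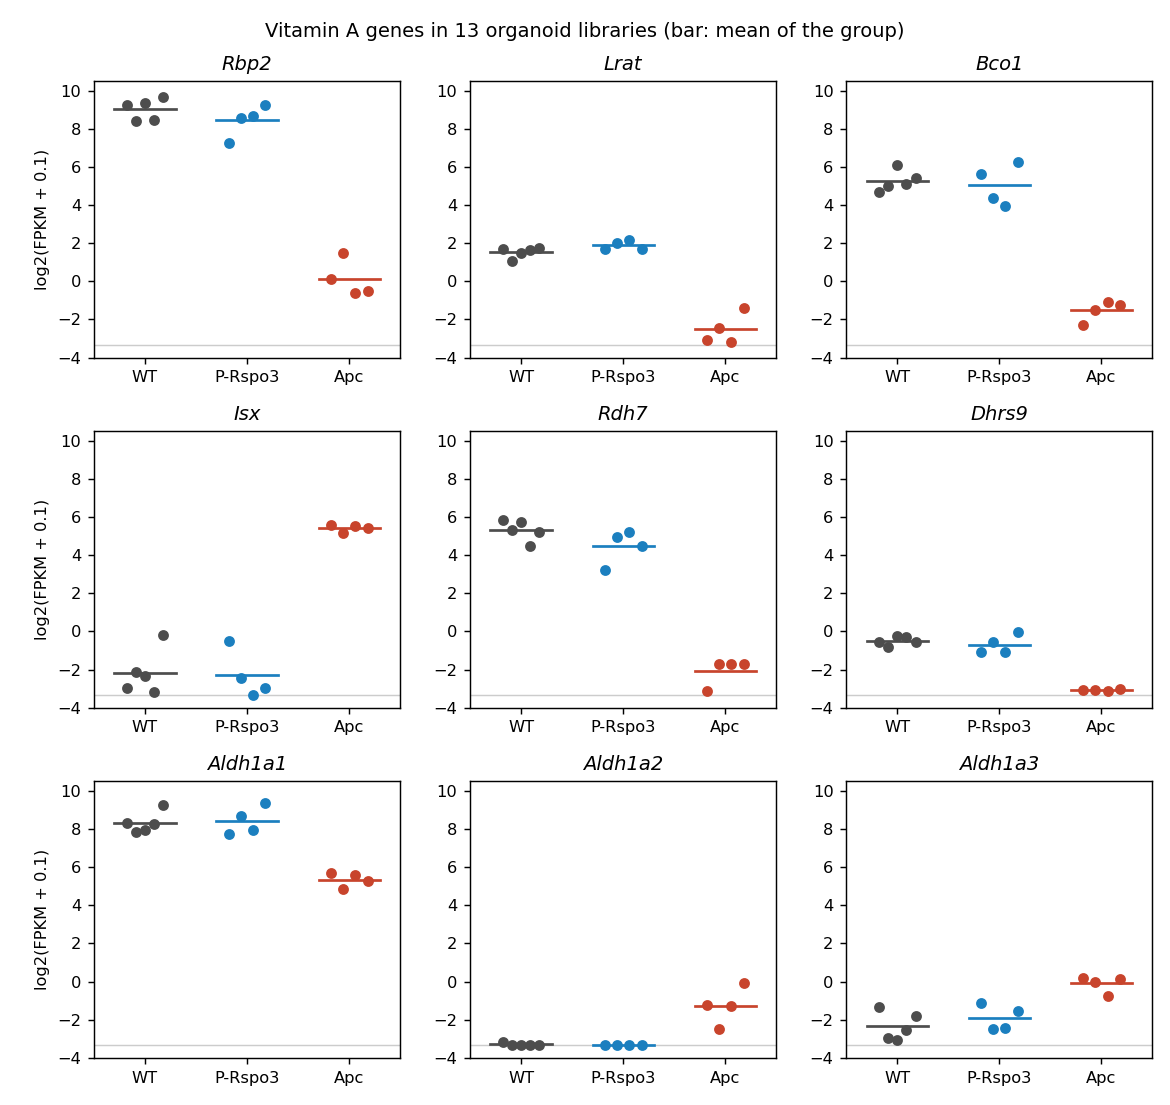
Level of the 9 genes, 1 panel a gene, as log2(FPKM + 0.1) in each library (points) of WT, P-Rspo3 and Apc organoids, with the mean of the group as a bar and the value of an FPKM of 0 as a grey line. Apc points lie apart from both other groups in each panel, above them for Isx, Aldh1a2 and Aldh1a3 and below them for the other 6 genes, while WT and P-Rspo3 points overlap.

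Over the members, 6 of the 8 tested were called lower in Apc than in WT and 2 higher, against 14.1% called lower and 12.2% called higher of the 16749 genes tested. The median log2 fold change was -5.18 over the members tested and 0.0006 over all genes tested. Between Apc and P-Rspo3, 6 were called lower and 2 higher, against 13.3% and 13.4% of 16456 genes, with a median of -5.28. These comparisons share the Apc libraries. The members were chosen with earlier results of these data known, so the shares over all genes are given for description only. In these comparisons Isx and Aldh1a3 passed the expression filter only through the Apc libraries, where they were high. Lrat, Rdh7 and Dhrs9 passed it only through the WT or P-Rspo3 libraries, where they were high. Within each numbered line the sign was the same as between the groups for all 9 genes: the difference of Apc from WT in log2(FPKM + 0.1) was -9.14, -6.90, -9.95 and -8.97 for Rbp2 in lines 1, 2, 5 and 6. For Isx it was 8.59, 7.29, 7.87 and 8.56. For Aldh1a1 it was -2.61, -3.00, -2.39 and -3.00.

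P-Rspo3 and WT organoids did not differ past the threshold in any member. In the edgeR test, 1 of the 7 members tested had an unadjusted p under 0.05, as had 2159 of all 15992 genes tested. By edgeR 0 of the 7 members were called, against 1 call among the 15992 genes (0.00625%), and DESeq2 and limma also called 0 members. That background was itself unsteady: DESeq2 without a prior called 55 genes higher and 173 lower, and edgeR without WT naive called 166 higher and 100 lower, with 0 members among them in either. The gene with an unadjusted p under 0.05 was Lrat, at a log2 fold change of 0.39 (95% interval 0.03 to 0.74, edgeR adjusted p = 0.33). The estimate was -0.51 for Rbp2 (95% interval -1.37 to 0.35), -0.76 for Rdh7 (-1.61 to 0.08) and -0.01 for Bco1 (-1.04 to 1.01). It was -0.16 for Dhrs9 (95% interval -0.82 to 0.50), 0.18 for Aldh1a1 (-0.69 to 1.05) and 0.21 for Aldh1a3 (-0.63 to 1.05). These intervals include 0 for all but Lrat, and those of Rbp2, Rdh7, Bco1, Aldh1a1 and Aldh1a3 also include a 2-fold difference. Isx and Aldh1a2 were below the filter in this comparison.

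**Figure D2:**
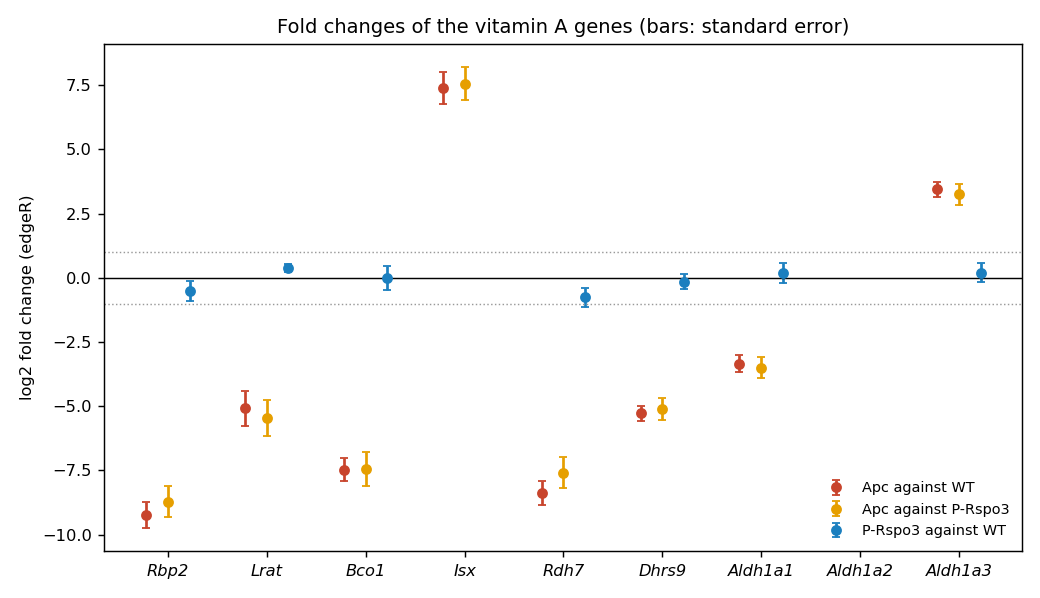
Fold changes of the 9 genes (log2, edgeR) in the 3 comparisons, with standard errors as bars and dotted lines at a log2 fold change of 1 and -1. Red and orange points (Apc against WT and against P-Rspo3) lie between -9.23 and 7.55 and beyond the dotted lines, blue points (P-Rspo3 against WT) lie between -0.76 and 0.39, and Aldh1a2, with Isx in P-Rspo3 against WT, has no point because it was below the filter.

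The enterocyte is the cell in which RBP2 and BCO1 are known to act. Its markers fell in Apc as 6 of the members did, while Isx, Aldh1a2 and Aldh1a3 rose. All 10 enterocyte markers were called lower in Apc than in WT (median log2 fold change -8.82) and in Apc than in P-Rspo3 (-8.54), and none was called between P-Rspo3 and WT. P-Rspo3 15d had the lowest enterocyte sum of the WT and P-Rspo3 libraries (2510) and also their lowest Rbp2, Rdh7, Dhrs9 and Aldh1a1. Its Bco1 (48.5 FPKM) and Lrat (3.19) lay within the WT ranges of 25.3 to 69.3 and 1.99 to 3.21. The part of enterocytes in the fall of the 6 members was not tested. Of 5 stem cell markers, 4 were called higher in Apc and 1, Olfm4, lower. Markers of other mature cells were also called lower in Apc than in WT, 5 of 5 for goblet cells, 4 of 5 for Paneth cells (with 1 higher), 4 of 5 for enteroendocrine cells and 2 of the 3 tested for tuft cells. Of 6 epithelial markers, 1 was called higher in Apc than in WT and 1 lower. Krt18 was 443 to 614 FPKM in Apc against 161 to 220 in WT, and Cdh1 was 164 to 205 against 110 to 145. Below their WT ranges were Vil1, at 82.3 to 99.0 FPKM against 149 to 207, and Krt19, at 340 to 557 against 575 to 813. Epcam and Krt8 overlapped their WT ranges.

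Markers of cells outside the epithelium were also compared, since Aldh1a2 is known from mesenchymal cells. Of 7 fibroblast markers, Dcn and Lum were at 0 in all Apc libraries, and Col1a1, Col1a2 and Col3a1 were at most 0.0433 FPKM. Vim was 16.5 to 253 in Apc against 2.17 to 4.81 in WT and Pdgfra 0.175 to 0.230 against 0 to 0.0150, so the summed level of the list was 16.7 to 253 in Apc, 2.18 to 4.85 in WT and 1.34 to 2.98 in P-Rspo3. Of 4 endothelial markers Kdr was at 0 in every grouped library, while Vwf and Cdh5 were called higher in Apc and Pecam1 lower (0.0262 to 0.152 FPKM against 0.278 to 0.365 in WT), with a summed level of 5.22 to 12.5 in Apc, 0.419 to 0.986 in WT and 0.321 to 0.590 in P-Rspo3. Of 5 immune markers Ptprc, Cd3e and Itgax were at most 0.0429 FPKM in Apc, Cd68 was called higher and Lyz2 lower (0.0756 to 0.285 FPKM against 0.314 to 0.606 in WT), with a summed level of 3.85 to 10.2 in Apc, 1.17 to 1.85 in WT and 1.16 to 1.57 in P-Rspo3. The part of these genes' sources in the level of Aldh1a2 and Aldh1a3 was not tested.

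**Figure D3:**
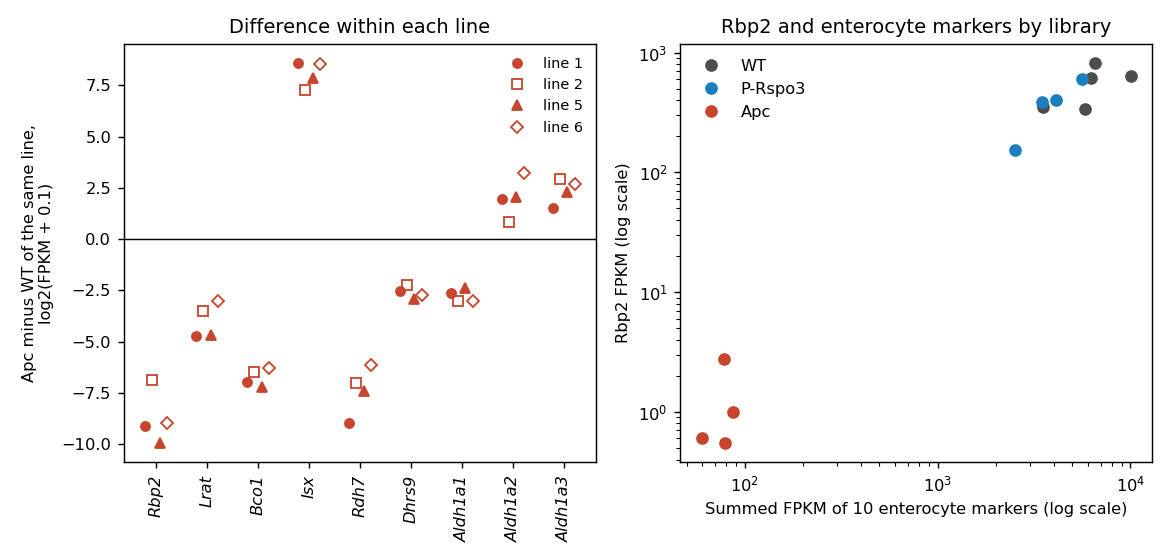
Left, the difference of Apc from WT within lines 1, 2, 5 and 6 in log2(FPKM + 0.1) for each of the 9 genes, with the 4 lines on the same side of 0 for every gene. Right, FPKM of Rbp2 against the summed FPKM of 10 enterocyte markers in each library, on log scales, with Apc libraries at marker sums of 59.9 to 87.4 and all others at 2510 or more.

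How alike the genes varied without the Apc libraries was described over the 9 WT and P-Rspo3 libraries by Pearson's correlation of log2(FPKM + 0.1), which these libraries' common depth and cell makeup can raise. The nearest genes to Rbp2 were Fth1, the ferritin heavy chain (r = 0.98), Cda, cytidine deaminase (0.97), and Gm6977 (0.97). Those of Rdh7 were Slc4a5 (0.98), Otop3 (0.97) and the enterocyte marker Alpi, intestinal alkaline phosphatase (0.97). Those of Aldh1a1 were Cat, catalase (0.98), Gsta2, a glutathione transferase (0.97), and Ugdh, UDP-glucose dehydrogenase (0.96). Bco1 was nearest to Nts, neurotensin (0.94), Ist1 and Tollip (0.93 each), and Lrat to Mrps18c (0.94), Thg1l and Sumf2 (0.93 each). The 3 nearest genes were in each case picked as the highest of many correlations over only 9 libraries. Values this high can arise from such picking alone, and whether any of them exceeds that was not tested.

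The rest of the pathway was read from a list of 39 genes with known roles around these 9. Of the 31 tested between Apc and WT, 14 were called lower and 6 higher, against 14.1% and 12.2% of all genes tested. Their median log2 fold change was -0.85. Between Apc and P-Rspo3, 14 of 32 were called lower and 6 higher (median -0.96), against 13.3% and 13.4% of all genes tested. The shares over all genes are given for description only. Of the called genes, Stra6, Rarb and Rdh1 passed the expression filter only through the Apc libraries, where they were high. Cd36, Rbp7, Adh4, Adh7 and Sdr16c5 passed it only through the WT or P-Rspo3 libraries, where they were high. Between P-Rspo3 and WT, edgeR called 0 of 30. An unadjusted p under 0.05 in that test was reached by 5 of the 30 and by 2159 of all 15992 genes tested. DESeq2 without a prior called 1, the retinol dehydrogenase Sdr16c6 (2.74, SE 0.62, DESeq2 adjusted p = 0.0013). By edgeR the same gene was at 2.74 (SE 0.64, edgeR adjusted p = 0.13). Its FPKM was 0.149 in P-Rspo3 M, 2.16 to 3.01 in the other P-Rspo3 libraries and 0.134 to 0.460 in WT.

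In uptake and transport, 5 of 7 genes were called lower in Apc than in WT and 1 higher. Scarb1, a scavenger receptor that takes up carotenoids, was 45.6 to 88.8 FPKM in WT, 38.6 to 55.2 in P-Rspo3 and 22.6 to 25.7 in Apc (log2 fold change -1.66 against WT, SE 0.19). Cd36, a fatty acid transporter, had 274 counts or more in WT and 6 counts over all Apc libraries, a ratio of summed counts of 696 (exact 95% interval 319 to 1900). Bco2, the second carotenoid-cleaving enzyme, fell by 5.19 on the log2 scale (SE 0.31). Dgat1, which can also esterify retinol, had a mean FPKM of 363 ± 60.8 (SD, n = 5) in WT against 35.4 ± 2.14 (SD, n = 4) in Apc, with 314 ± 59.9 (SD, n = 4) in the P-Rspo3 group. Rbp4, the retinol carrier of the blood, was called lower against WT at -1.61 (SE 0.36), and not against P-Rspo3. Its FPKM was 0.925 to 2.73 in WT, 0.179 to 1.37 in P-Rspo3 and 0.416 to 1.01 in Apc. Between P-Rspo3 and WT its estimate was -1.31 (SE 0.47, edgeR adjusted p = 0.26), which was not called. Stra6, the receptor that takes up retinol from RBP4, was at 0 counts in every WT library and at 145, 58, 259 and 186 in Apc 1, 2, 5 and 6, at least 40.7-fold higher. Of the binding proteins, Rbp7 alone was called lower, with 726 counts over the WT libraries and 5 over the Apc libraries, a ratio of 151 (exact 95% interval 64.4 to 467).

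Among enzymes that oxidise retinol, called genes went both ways. Adh1, a cytosolic alcohol dehydrogenase, was at 1363 ± 382 FPKM (SD, n = 5) in WT against 2.87 ± 0.532 (SD, n = 4) in Apc, a log2 fold change of -9.25 (SE 0.29), with 1315 ± 555 (SD, n = 4) in the P-Rspo3 group. On that scale Adh4 fell by 9.64 (SE 0.47), Adh7 fell by 3.99 (SE 0.57) and Sdr16c5 fell by 3.10 (SE 0.62). Against P-Rspo3, but not against WT, the retinol dehydrogenases Rdh16 (-1.20, SE 0.33) and Sdr16c6 (-2.31, SE 0.80) were also called lower. The Sdr16c6 call was lost in 6 of 8 fits that left out a library (Apc 1, 2 or 6, or P-Rspo3 15d, 4d or F), at -2.25 to -2.08 with edgeR adjusted p of 0.063 to 0.084. Rdh10, the membrane-bound retinol dehydrogenase of embryonic retinoic acid synthesis, was at 12.3 ± 1.85 FPKM (SD, n = 5) in WT against 61.2 ± 6.32 (SD, n = 4) in Apc, with 12.96 ± 2.90 (SD, n = 4) in the P-Rspo3 group. Its log2 fold change was 2.02 (SE 0.09, edgeR adjusted p = 5e-08) against WT and 1.97 (SE 0.19) against P-Rspo3. Rdh1 (3.32, SE 0.34) and Rdh9 (2.90, SE 0.77) also rose, within the gene cluster that holds Rdh7. The levels of 8 short-chain retinol dehydrogenases (Rdh7, Dhrs9, Rdh1, Rdh9, Rdh10, Rdh16, Sdr16c5 and Sdr16c6) were also summed. Rdh5 was left out, at 2.4 to 5.9 FPKM in WT, 3.2 to 5.3 in P-Rspo3 and 2.1 to 3.4 in Apc. Over the 8 genes the summed FPKM was 37.5 to 73.4 in WT, 27.9 to 54.0 in P-Rspo3 and 65.3 to 77.1 in Apc. Rdh7 made up 58.3% to 79.0% of that sum in WT, 33.4% to 71.2% in P-Rspo3 and 0.0191% to 0.311% in Apc. Rdh10 made up 15.4% to 33.8%, 23.4% to 33.5% and 81.4% to 94.9% in the same order. The Apc sums overlapped those of WT and lay above those of P-Rspo3. The leading gene of the sum was Rdh10 in all 4 Apc libraries and Rdh7 in the other 9, with 33.4% against 33.0% for Rdh10 in P-Rspo3 15d.

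Of the genes whose products turn retinal back into retinol, Dhrs3 (-1.77, SE 0.16) and Dhrs4 (-1.36, SE 0.11) were called lower in Apc than in WT, and Dhrs3 also against P-Rspo3 (-1.47, SE 0.20). Of the receptors, Rarb, itself a known target of retinoic acid, rose from 0.0492 ± 0.0320 FPKM (SD, n = 5) in WT to 0.994 ± 0.162 (SD, n = 4) in Apc, and was 0.0586 ± 0.0233 (SD, n = 4) in P-Rspo3. Rarg rose by 1.04 on the log2 scale (SE 0.32), close to the threshold, and Rxra, the partner of the RARs, fell by 1.66 (SE 0.08). The Rarg call was lost with the line as a block and without WT 6, WT naive or Apc 6, at 0.76 to 0.91 without these libraries. Against P-Rspo3 it was 1.08 (SE 0.38) and was lost in 6 of 8 fits that left out a library (Apc 2, 5 or 6, or P-Rspo3 4d, M or F), at 0.80 to 1.16 with edgeR adjusted p of 0.05 to 0.1. The Cyp26 enzymes, which break down retinoic acid, were below the filter, with Cyp26b1 at 26 counts over the WT libraries, 11 over P-Rspo3 and 93 over Apc.

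**Figure D4:**
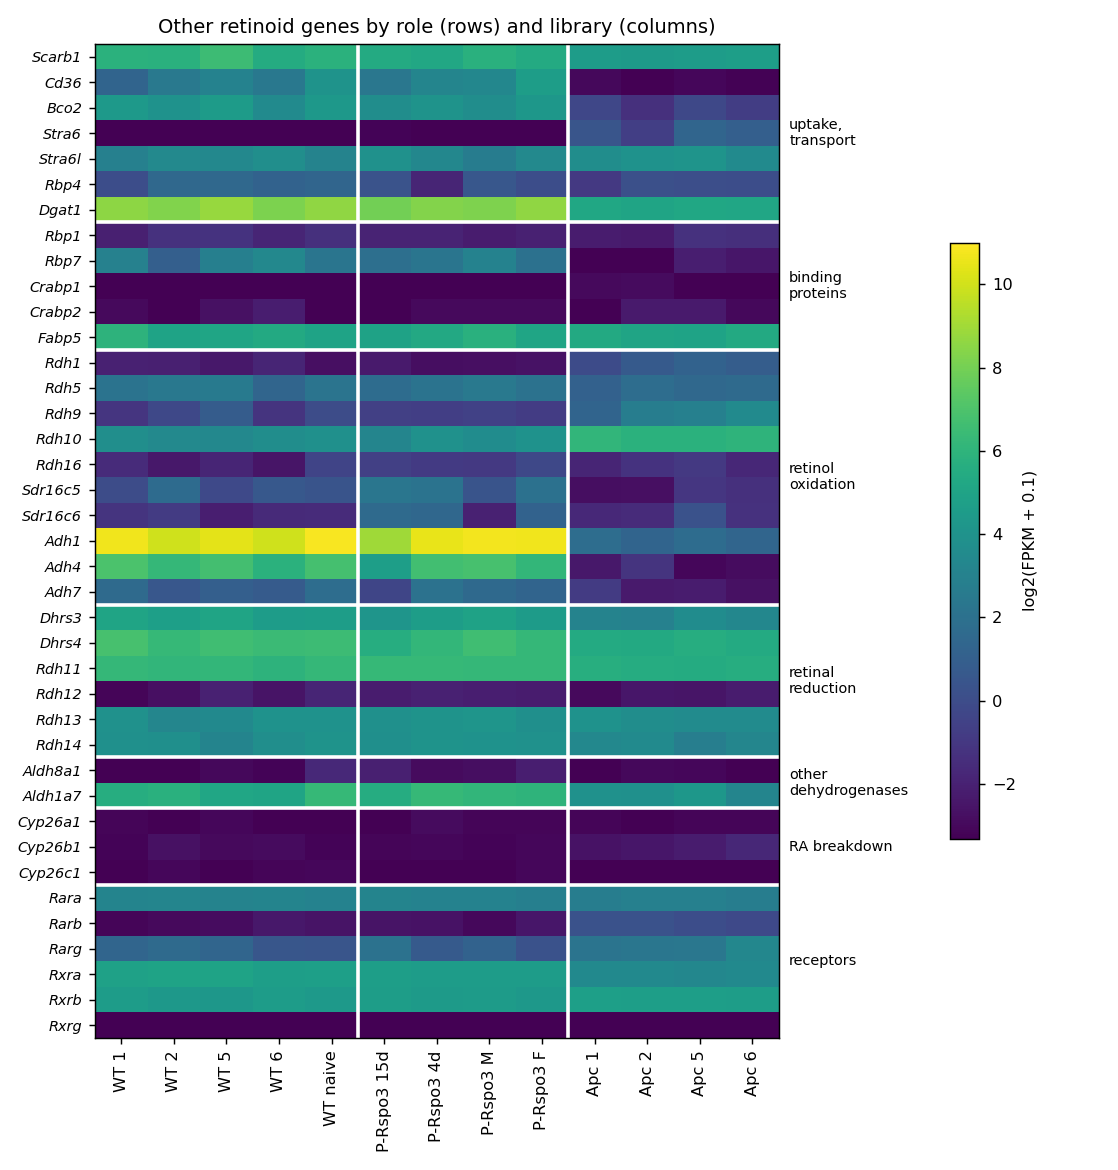
Level of the 39 other retinoid genes (rows, by role) in the 13 libraries (columns), coloured by log2(FPKM + 0.1). Adh1 and Dgat1 are bright in WT and P-Rspo3 and darker in Apc, while Rdh10, Stra6 and Rarb are brighter in Apc.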

How the data were processed

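RNA of 15 organoid cultures was sequenced. Reads were aligned by the authors to GRCm38 (STAR), and raw counts per Ensembl gene were made with HTSeq 0.6.0 and deposited as whole numbers. The authors also deposited FPKM values from Cufflinks 2.2.1. Neither the release of the annotation nor the use of strand in counting is stated in the sources used here. Groups were taken from the labels, and 2 libraries of unclear group entered only alternative fits. Symbols and GRCm38 positions came from GENCODE M21 (42462 of 43629 genes) and promoters from RefSeq (8 of 9 members).

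Counts were tested in edgeR 4.0.16 (R 4.3.3) after TMM scaling, by glmQLFit and glmQLFTest with default options, fitting each pair of groups on its own. A gene was kept where its FPKM reached 0.1 in a number of libraries no smaller than the smaller of the groups. Adjusted p are Benjamini-Hochberg values over all genes tested, and a call also needed an absolute log2 fold change above 1. Levels of different genes were compared only as FPKM. Since nothing states that the cultures of a group came from separate animals, p-values measure the spread between these cultures. No pair of libraries within a group differed by as little as sampling noise gives (the smallest chi-square per gene was 22.4). The edgeR fits were tested on simulated counts with the same spread for every gene and changes planted only in well-counted genes. That simulation does not check the fits for genes with few counts.

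The members, the pathway list, the cell markers and the tests were chosen with earlier results of these data known. Named genes were the 9 members, pathway genes called in any comparison, the 3 genes most like each member with a mean FPKM of at least 1 over the 13 grouped libraries (Isx met this only through the Apc libraries, and its correlations are not given; Dhrs9, Aldh1a2 and Aldh1a3 did not), and Apc, Rspo3 and Ptprk as checks of the labels. Sdr16c6 in P-Rspo3 against WT, Cyp26b1, the markers named singly and the 3 promoters printed were chosen after their values were seen.

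Apc and WT libraries with the same number are the same line by their labels. Correlations of their deviations from the group means were 0.236, 0.177, 0.0788 and 0.0175 in lines 1, 2, 5 and 6 (12377 genes), against -0.189 to 0.152 for other pairs. The line as a replicate block was an alternative, as were DESeq2 1.42.0, DESeq2 size factors, limma 3.58.1 on log2(FPKM + 1) and log2(FPKM + 0.1), other filters, the newer form of the edgeR test, all 3 groups in 1 fit, both ways of assigning the unclear libraries, the adjusted p alone and each library left out. With 28902729 to 35528495 counts per library, at most 3 counts was read as not detectable, and intervals of count ratios cover counting error only.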

Additional observations from a re-analysis of the deposited data

Results flagged for a closer look

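Among the members, 26 groups of FPKM values were examined for a library far from the rest of its group, and 5 stood out. How many would stand out by chance was not computed. Isx was 0.7653 in WT naive, against 0.0123 to 0.131 in the other WT libraries. Isx was also 0.6119 in P-Rspo3 15d, against 0 to 0.0842 in the other P-Rspo3 libraries. Rdh7 was 0.01397 in Apc 1, against 0.203 to 0.207 in the other Apc libraries. Aldh1a1 was 615.6 in WT naive, against 230 to 316 in the other WT libraries. Aldh1a2 was 0.0109 in WT 1, which is 1 count, and 0 in the other WT libraries.

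The libraries of unclear group entered only alternative fits. The library titled LIPO had 0 counts of Rspo3 and the library titled NAIVE_F had 729. Lrat was 4.197 FPKM in the library titled LIPO and 3.406 in the library titled NAIVE_F, above the highest WT library at 3.21 and within the P-Rspo3 range of 3.12 to 4.42. Aldh1a1 was 639.7 in LIPO, above the highest WT library at 616.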

How the results depend on the processing

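Every call of a member in Apc against WT and against P-Rspo3 kept its direction in all alternatives that tested it. With a filter of FPKM 1, which left Dhrs9 and Aldh1a3 untested, 1 member was called higher in each comparison and 3 pathway genes were. Against WT, 5 members were called lower with this filter. On log2(FPKM + 1) limma called 1 member higher in each, since Aldh1a3 (0.73 and 0.64) no longer passed a log2 fold change of 1. Dhrs9 (-0.67 and -0.60) no longer passed it either, and limma called 5 members lower against WT. Limma moved the median of all genes tested in Apc against WT to 0.28 on log2(FPKM + 0.1) and 0.17 on log2(FPKM + 1), where higher calls made up 59.9% and 55.6% of all calls, against 46.4% by edgeR. Against P-Rspo3 the medians were 0.25 and 0.16, and higher calls made up 61.3% and 56.0%, against 50.3% by edgeR. Without a filter Aldh1a2 was called higher in both comparisons.

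With the line as a replicate block, all 8 members tested in Apc against WT were called with the same sign, Rbp2 at -9.03, Aldh1a1 at -3.04 and Isx at 9.23 against 7.40 without it, and Rarg was the only pathway gene to lose its call. Leaving out 1 library ended the call of Rarg in Apc against WT (3 of 9 fits) and of Rarg and Sdr16c6 in Apc against P-Rspo3 (6 of 8 fits each). Apart from the stricter filter, other settings ended the calls of Rbp4 and Rarb (limma) against WT, and of Rdh16 (limma, 3 groups in 1 fit, unclear libraries assigned by genotype), Scarb1, Sdr16c6 and Rarb (limma) against P-Rspo3. No paired analysis was possible for P-Rspo3 because its libraries share no numbers with the others.

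In P-Rspo3 against WT, DESeq2 without a prior called 1 pathway gene higher, and leaving out a library gave 0 to 1 (Sdr16c6 without P-Rspo3 M, Rdh16 without WT naive). Uncalled estimates changed sign: Aldh1a1 was -0.049 with the unclear libraries assigned by genotype and Bco1 was 0.0132 with them assigned the other way. With 1 library left out, Bco1 ranged from -0.56 to 0.29, Dhrs9 from -0.50 to 0.0088, Aldh1a3 from -0.15 to 0.42 and Aldh1a1 from -0.27 to 0.51. Except for the fewer genes of the stricter filter and the larger pseudocount, the cause was not tested. Counts in single digits (Isx in most WT and P-Rspo3 libraries, Dhrs9 in Apc, Aldh1a2 outside Apc) limit the precision of those fold changes.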
